A study of Mus musculus with 32 samples.

Results

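The genes of the cytosolic ribosome, the machine that translates nuclear messages in the cytoplasm, were followed in mouse blood 24 h after X-irradiation. Members were all non-control probes whose gene symbol on the array names a small-subunit protein (Rps), a large-subunit protein (Rpl), a P-stalk protein (Rplp0, Rplp1, Rplp2) or Rpsa, with the S6 kinase genes left out. This rule used symbols only and found 186 probes of 39429, for 80 of 30199 gene names, of which 32 encode small-subunit and 48 large-subunit proteins. Of these, 174 probes (93.5%) for 77 genes were tested, having passed a filter on dim probes (above background on 4 or more arrays of some group) that 46.6% of all probes passed. On all 32 arrays 154 of the 186 (82.8%) were well above background, against 14.8% of all probes, and no member spot was saturated. The 12 probes that were not kept included all probes of Rpl3l, Rpl10l and Rpl39l, copies of Rpl3, Rpl10 and Rpl39 known from muscle or testis, which were well above background on at most 4 of the 32 arrays.

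Whole blood was taken by cardiac puncture from male mice of strain C57BL/6 and 3 genotypes, preserved in PAXgene, depleted of globin transcripts and hybridised to Agilent 1-colour arrays, 1 mouse per array. Wild-type mice (WT) received 0 Gy (n = 6) or 8 Gy (n = 5), ATM-/- mice (Atm), which lack a kinase that signals DNA double-strand breaks, 0 Gy (n = 5) or 4 Gy (n = 6), and Scid mice, whose mutation in Prkdc impairs end joining and lymphocyte development, 0 Gy (n = 5) or 3 Gy (n = 5). The 0 Gy mice were sham-irradiated and were also sampled at 24 h. Each irradiated dose was the one given as LD50/30 for its genotype, so genotype and dose change together. The 2 Atm probes and the Prkdc probe were not kept and were well above background on at most 3 arrays, so they give no check of the genotype labels. Each array is a separate mouse, and the p-values set a change against the spread between arrays. With 1 array per mouse, that spread holds differences between mice and between arrays together. In whole blood, fewer cells of a type and less RNA per cell cannot be told apart.

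Each ribosomal protein sits at a fixed place on one of the ribosome's subunits, and the genes are usually expressed together at a high level. Their messages begin with a 5′ terminal oligopyrimidine tract, a run of C and U at the cap that ties their translation and stability to growth signalling. In blood, reticulocytes keep such messages after losing the nucleus, and defects of single ribosomal proteins cause Diamond-Blackfan anaemia, a failure of red cell production. Several unassembled proteins, Rpl5 and Rpl11 among them, bind MDM2 and so stabilise p53, the main transcription factor of the response to DNA damage.

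Sequences around the start site were taken from RefSeq (GRCm38.p6) to show the feature that the members share outside the expression values. Of the 80 genes 59 had an entry. In the window from 50 bases before to 50 after the annotated start, 50 of the 59 (84.7%) held a run of at least 8 pyrimidines on the gene's strand, against 39.3% of 27025 genes. On the opposite strand the shares were 23.7% and 41.1%. The letters CTTTCC stood on the gene's strand in 32.2% of the 59 and in 5.43% of all genes, and on the opposite strand in 1.69% and 5.12%. The windows below have 30 bases each, read on the gene's strand from 5′ to 3′, with the longest pyrimidine run near the annotated start in capitals (the first of equal runs). They are shown for 4 genes with a probe that fell in WT (Rpl28, Rplp2, Rpl37a and Rpl36a), for Rpl11, which fell in Scid, for Rps27l and Rps19, whose single probes had positive changes in WT, and for Rpl31, of whose 4 probes 1 did.
Rpl28, chr7:4792952-4792981, plus strand: gcctctcgtgTCTCTCTTTCCgtctccggc
Rplp2, chr7:141447636-141447665, plus strand: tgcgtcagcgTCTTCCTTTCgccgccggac
Rpl37a, chr1:72711274-72711303, plus strand: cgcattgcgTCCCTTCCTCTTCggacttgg
Rpl36a, chrX:134585672-134585701, plus strand: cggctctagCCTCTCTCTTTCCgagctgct
Rpl11, chr4:136053358-136053387, minus strand: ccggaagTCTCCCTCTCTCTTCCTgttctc
Rps19, chr7:24884626-24884655, plus strand: cgtcgTTCCCTTTCCCCTggctggcagcgc
Rpl31, chr1:39367824-39367853, plus strand: ctcgccacaCCTCTTCCTCCTCgcctcccc
Rps27l, chr9:66946053-66946082, plus strand: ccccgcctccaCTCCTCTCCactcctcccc
The run had 17 bases in Rpl11, 13 in Rpl37a, Rpl36a, Rps19 and Rpl31, 11 in Rpl28, 10 in Rplp2 and 9 in Rps27l, where another run of 9 follows in lower case. The windows begin at different places, at -50 from the annotated start in Rps19 and at 15 and 19 in Rpl37a and Rpl36a. A run in capitals is thus not shown to be the tract at the cap. A run is a match of letters and was not tested as a start of transcription.

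Array brightness differed between groups and touches every value below. The 75th percentile of the processed signal ran from 17.1 to 232.0 over the 32 arrays, and was 176.6 ± 51.4 (SD, n = 5) in WT at 8 Gy against 75.6 ± 65.7 (SD, n = 6) at 0 Gy. On the irradiated WT arrays 45.7 to 58.6% of probes were well above background, and on their controls 28.0 to 53.3%. Arrays were scanned on 4 days (15, 12, 4 and 1 arrays). Markers of red cells, B cells, T cells, neutrophils, monocytes and platelets were kept for 9, 10, 10, 10, 8 and 10 genes of lists of 10 each. Liver markers (7 of 10 genes kept, Apoa1, Fga and Ttr not) were also bright on some arrays, with a mean level from -0.80 to 8.54 in WT at 0 Gy, from -0.10 to 8.34 in WT at 8 Gy and from -1.60 to 7.87 in Atm at 4 Gy. Of 10 heart markers 5 genes were kept.

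Levels are given as log2 signal above the 75th percentile of the array, unless another scale is named. On this scale the kept members had mean levels from -2.36 to 11.45 with a median of 6.57. The level of the family on an array was taken as the median of the 154 probes well above background on all arrays. In WT at 0 Gy it ran from 6.48 over a median of 6.91 to 7.38 (6.98 ± 0.33, SD, n = 6), and at 8 Gy it was 6.47, 5.88, 6.20, 6.55 and 6.57 (6.33 ± 0.29, SD, n = 5). Of the 5 irradiated arrays 3 lay below every control. In Atm the 0 Gy arrays stood at 6.94, 7.20, 6.95, 7.23 and 6.58 (6.98 ± 0.26, SD, n = 5), and the 4 Gy arrays ran from 5.73 over a median of 6.46 to 7.21 (6.51 ± 0.54, SD, n = 6), 3 of them below every control. In Scid the levels were 6.89, 6.72, 6.64, 6.99 and 7.40 at 0 Gy (6.93 ± 0.30, SD, n = 5) and 5.91, 7.17, 6.29, 6.31 and 6.31 at 3 Gy (6.40 ± 0.47, SD, n = 5), 4 of them below every control. The 0 Gy groups of the 3 genotypes overlapped over most of their range. The family level was thus 0.64, 0.47 and 0.53 lower after irradiation in WT, Atm and Scid at this scaling, and 0.84 higher in WT with normexp background correction, where Atm and Scid kept a lower level (-0.85 and -0.57).

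**Figure D1:**
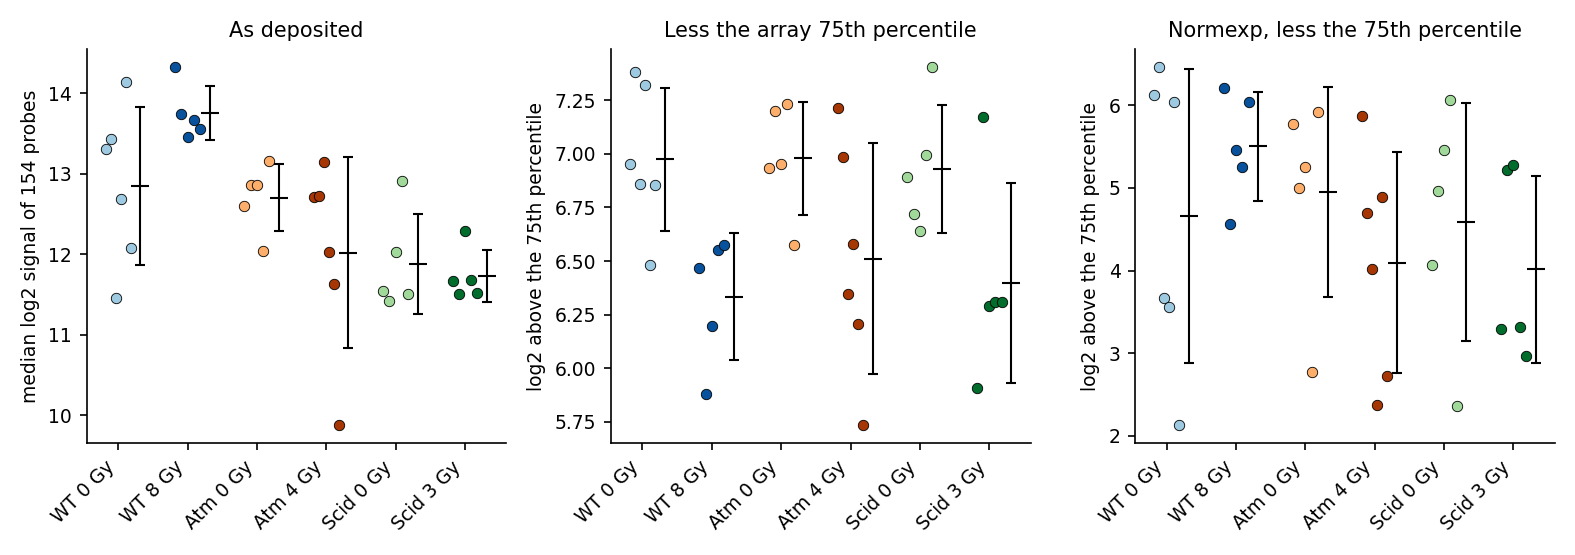
Level of the ribosomal protein family on each of 32 arrays (points), as the median log2 signal of 154 probes, by group, with mean and SD (bars): as deposited, less the array's 75th percentile, and less it after normexp background correction. The WT 8 Gy arrays lie above most WT controls as deposited (13.75 against 12.85 on average), below most of them at 75th percentile scaling (6.33 against 6.98), and above the control mean again with normexp (5.50 against 4.66).

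The direction of the family after irradiation depended on the between-array scaling and on the background correction in WT. The median change of the 174 probes in WT was -0.69 at 75th percentile scaling, -0.35 with each array's median, -0.26 with a 75th percentile taken over only the always-detected probes, -0.26 in the authors' deposited values and -0.03 with quantile normalization. It was 0.57 with scaling to spike-in probes and 0.63 with normexp. All probes tested had medians of -0.00035, 0.34, 0.43, 0.23, 0.14, 1.26 and 0.01 under these settings in the same order. A scaling that shifts all probes of an array by a constant moves members and other probes alike, and under these settings (75th percentile, array median, detected probes, spike-in) the members lay 0.69 below all probes. With normexp they lay 0.62 above them. Normexp added an offset of 50 to the signals, which exceeds the array's 75th percentile on 15 of the 32 arrays.

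In Atm the members' median was negative under every one of these settings, from -0.11 with quantile normalization to -1.91 with spike-ins. It was also negative in Scid, from -0.18 with spike-ins to -0.71 with the array median. The spike-in probes were themselves brighter in Atm at 4 Gy (mean log2 signal 13.79 ± 0.76, SD, n = 6) than at 0 Gy (12.50 ± 0.51, SD, n = 5). This came from replicates 2 to 5, scanned on day 2 (13.73, 14.45, 14.57 and 14.20). Replicates 1 and 6, scanned on days 1 and 3, stood at 12.84 and 12.94, within the 0 Gy range of 11.85 to 13.13. The Atm 0 Gy arrays were all scanned on days 1 and 3, and the part of scan day was not tested. In Atm the members' median stood 0.27 below that of all probes under the scalings by a constant, 0.71 below with normexp and 0.04 above with quantile normalization. In Scid it stood 0.49 below under constants, 0.48 below with normexp and 0.28 below with quantile normalization.

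**Figure D2:**
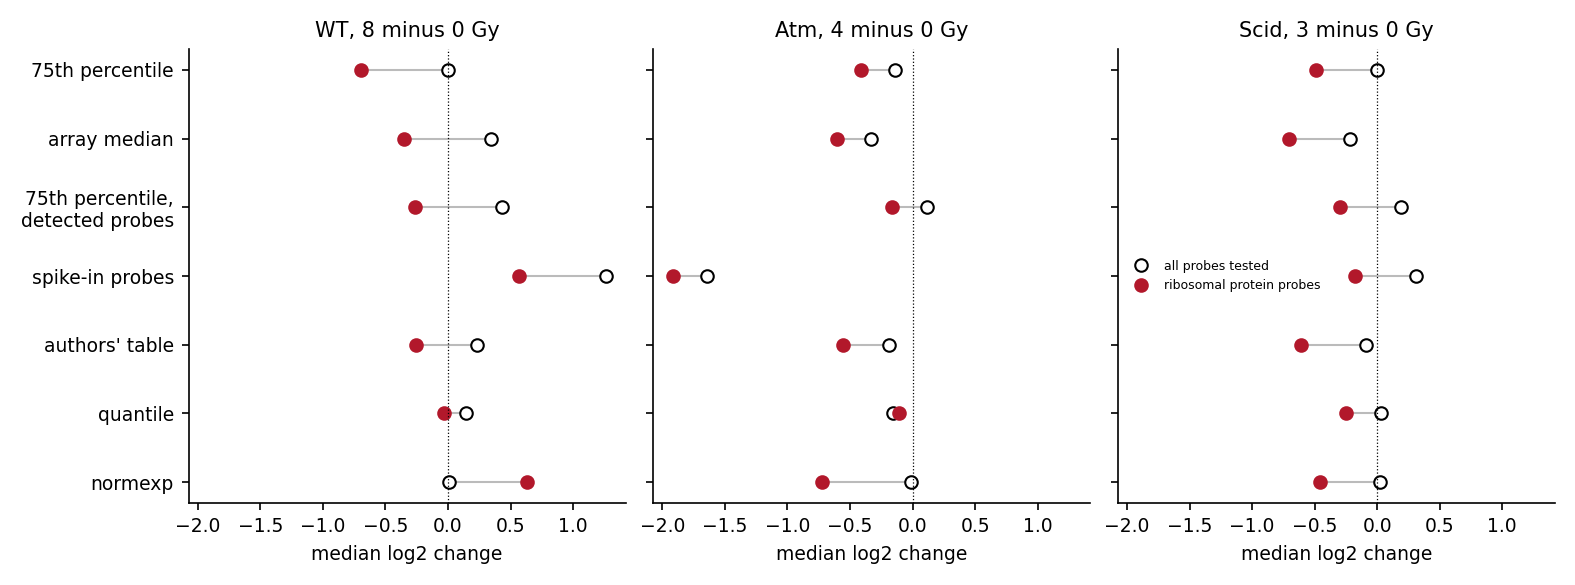
Median log2 change after irradiation of ribosomal protein probes (filled) and of all probes tested (open) under 7 settings, 1 panel per genotype. Normexp is a background correction followed by 75th percentile scaling, and the other settings are between-array scalings. In WT the filled points run from -0.69 (75th percentile) to 0.63 (normexp), while in Atm (-1.91 to -0.11) and Scid (-0.71 to -0.18) they stay below 0.

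Across the 32 arrays, the family level at 75th percentile scaling was set against array brightness (log2 of the 75th percentile), with r = -0.34 (permutation p = 0.0537, adjusted p = 0.0675) and rho = -0.33 (permutation p = 0.0675, adjusted p = 0.0675). This level has the same 75th percentile subtracted from it, so a negative coefficient is partly built in. These p-values therefore cannot decide whether the family is related to brightness. Without the 2 arrays farthest from the median brightness r was -0.23. With normexp it was 0.56 (permutation p = 0.00084, adjusted p = 0.00168) with rho = 0.65 (permutation p = 0.00012, adjusted p = 0.00048), and 0.58 without those arrays. Within groups of 6 arrays r was -0.43 (WT 0 Gy) and 0.43 (Atm 4 Gy) at 75th percentile scaling and 0.73 and 0.33 with normexp. The permutations ran over all 32 arrays, so their p-values do not separate differences between groups from those within them. On deviations from the group means r was -0.28 (rho -0.28) at 75th percentile scaling and 0.55 (rho 0.57) with normexp. The 4 coefficients with a p-value were adjusted as 1 family. Their part in the family's level was not tested beyond the alternatives given here.

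Values within scan days, at 75th percentile scaling, rested on 1 to 4 arrays per group. The family differed in WT by -0.60 on the first day (1 against 3 arrays) and by -0.69 on the second (3 against 2). In Scid it differed by -0.27 (2 against 4) and -1.11 (2 against 1) on these days. In Atm it differed by 0.13 on the first (1 against 4) and by -0.84 on the third (1 against 1), so the sign in Atm did not hold on each day. Replicates 2 to 5 of Atm at 4 Gy were scanned on the second day without any Atm control, and enter neither value. Dose and scan day thus largely change together in Atm. Within slides, with 1 array against 1, the differences were -0.39 and -1.44 in WT, 0.28 and -0.84 in Atm and -0.81 and 0.53 in Scid, so that the sign held on each slide in WT only. With normexp the WT differences by day were 0.79 and 0.29, those in Scid -0.89 and 1.93 and those in Atm 1.17 and -3.19.

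WT mice at 8 Gy were set against WT mice at 0 Gy to see how blood transcripts of normal mice respond to the dose. At 75th percentile scaling 15 of the 174 probes (8.62%), for 11 genes, fell at an adjusted p under 0.05 (limma, adjusted over all 18368 probes) and 0 rose, against 6.25% of all probes that fell and 1.14% that rose (7.39% called in all). All 15 had a positive change with normexp and 12 of them with spike-ins. A negative change was seen in 157 of the 174. Fitted changes ran from -1.37 to 1.59, and 95 probes were lower and 1 higher at an unadjusted p under 0.05. Here and below, a count at an unadjusted p without the count of all probes beside it is no result about the members. The groups did not overlap for 10 probes (5.75%), all lower at 8 Gy, against 3.92% of all probes. Small-subunit probes had a median of -0.59 (65 probes, 4 fell) and large-subunit probes of -0.72 (109 probes, 11 fell), which with normexp were 0.78 and 0.58.

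Rps14, a protein of the small-subunit platform whose loss causes the anaemia of 5q- syndrome, had the smallest adjusted p of the family. Its levels in WT at 0 Gy were 8.61 at the lowest, 9.67 at the median and 10.48 at the highest (9.69 ± 0.67, SD, n = 6), and at 8 Gy 8.51, 7.84, 8.25, 8.42 and 8.72 (8.35 ± 0.33, SD, n = 5). Only the lowest control, replicate 5, lay within the irradiated range. Rps14 fell by 1.35 (SE 0.32, adjusted p = 0.00626 in limma) and stayed called without any 1 of the 11 WT arrays, but its change was 0.15 with normexp. In Atm the levels were 9.06, 9.55, 9.50, 9.41 and 8.91 at 0 Gy and 8.69 to 9.85 with a median of 9.24 at 4 Gy, and the groups overlapped throughout (change -0.07, adjusted p = 0.964). In Scid they were 9.80, 9.75, 9.38, 9.44 and 10.86 at 0 Gy and 8.72, 10.06, 8.97, 9.11 and 8.93 at 3 Gy, where 4 of 5 irradiated arrays lay below every control (change -0.69, adjusted p = 0.498).

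Rpl28, a large-subunit protein, had a probe at the 5′ end of its transcript (base 62, chromosome 7, 4744951 to 4745010 in mm9, the build of the file headers) whose WT groups did not overlap. At 0 Gy it stood at 6.95, 6.95, 7.40, 7.15 and 7.34 (the value of replicate 5 was left out as a non-uniform spot), and at 8 Gy at 5.77, 5.50, 5.96, 6.25 and 6.17. The probe fell by 1.23 (SE 0.32, adjusted p = 0.0112) and stayed called without any 1 of the 11 arrays. With normexp its change was 0.48 and with spike-ins 0.35. The other Rpl28 probe, which the files place on chromosome 4 although the gene lies on chromosome 7, fell by 1.18 (SE 0.36, adjusted p = 0.0400).

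Rps29, a small-subunit protein of the head region, had 3 probes, all placed on chromosome 2 although the gene lies on chromosome 12. The probe of largest fall stood from 8.69 over 10.12 to 10.63 in WT controls and at 8.32, 7.85, 8.49, 9.09 and 9.08 after 8 Gy. These groups overlapped only through control replicate 5, at 8.69. The change was -1.37 (SE 0.43, adjusted p = 0.0482), it stayed called without 2 of the 11 arrays, and it was 0.033 with normexp. The other Rps29 probes changed by -1.24 and -1.05 and were not called.

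Rplp2, an acidic protein of the stalk that recruits elongation factors, fell by 1.22 (SE 0.37, adjusted p = 0.0409). It ran from 9.34 over 11.03 to 11.93 in the controls and stood at 9.36, 8.76, 9.91, 9.93 and 10.25 after 8 Gy, so that replicate 5 of the controls again lay among the irradiated arrays, and its change was 0.20 with normexp and 0.045 with spike-ins.

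Other called probes in WT belonged to Rpl13 (-1.05 and -1.02 on 2 probes), Rps16 (-0.91 and -0.90), Rpl37a (-1.09), Rpl36a (-1.06), Rpl21 (-0.92) and Rpl12 (-0.90), with adjusted p from 0.0231 to 0.0477. Both Rps16 probes had groups that did not overlap: on the second the controls ran from 8.03 to 8.92 and the irradiated arrays from 7.18 to 7.91. For Rpl36a, whose lowest control stood at 5.13, 1 irradiated array stood at 5.16 and the others from 4.17 to 4.92. The other probes with groups that did not overlap were not called (Rpl36a on another probe, Rpl24, 2 of Rps13, Rps15, Rpl7a and Rpl8, from -0.85 to -0.61).

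**Figure D3:**
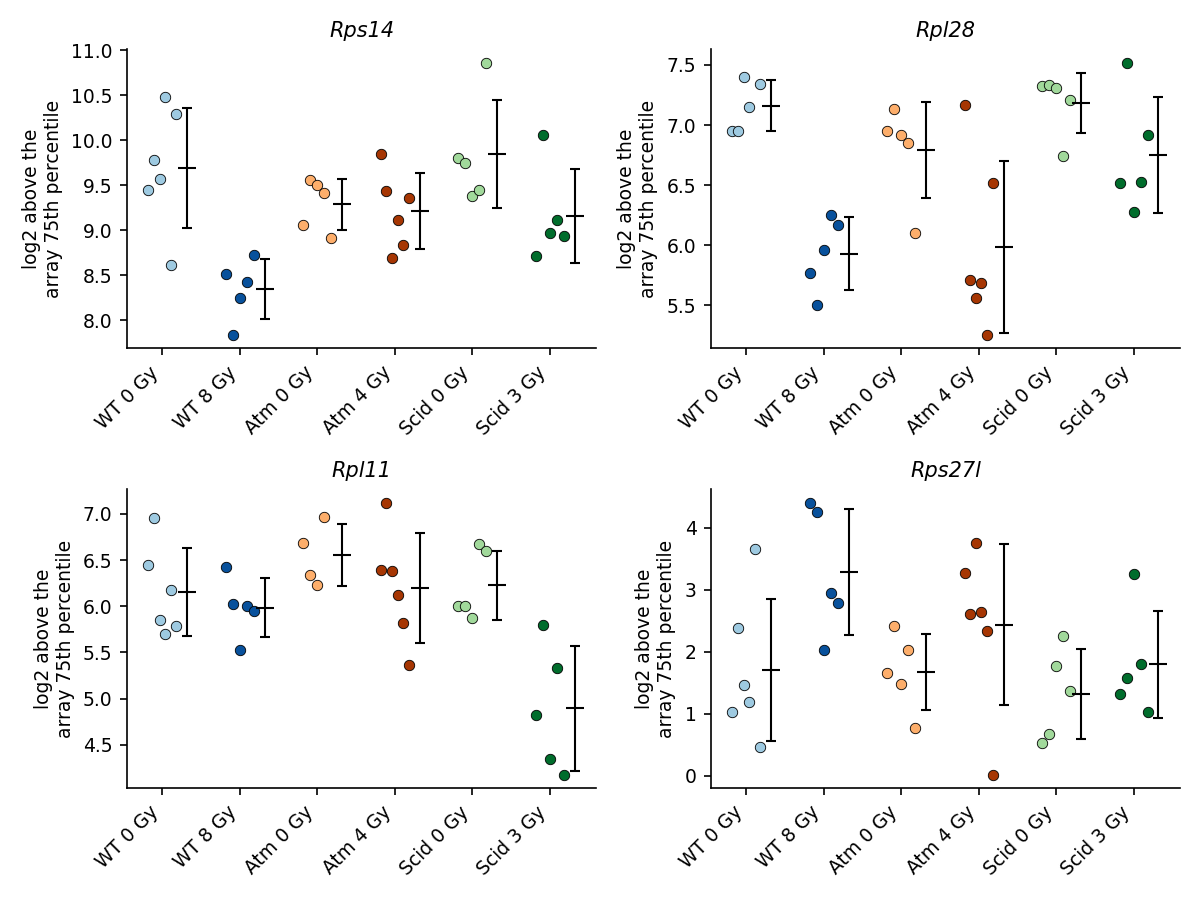
Level of 4 member probes (log2 above the array's 75th percentile) on every array, by group, with mean and SD (bars). Rps14 and Rpl28 are lower in WT at 8 Gy (Rpl28 with no overlap), Rpl11 is lower in Scid at 3 Gy (4.89 against 6.23), and Rps27l stands at 3.29 in WT at 8 Gy against 1.70 at 0 Gy with overlap. The WT changes of Rps14 and Rpl28 turn positive with normexp (0.15 and 0.48).

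The WT calls rested on few arrays. Counts of members in alternative fits, here and below, stand without the share of all probes called in the same fit. They describe how the family's calls vary, not how it compares with other probes. WT 0 Gy replicate 5 had the lowest family level of the controls (6.48), the brightest 75th percentile of them (202.6) and was among 4 arrays bright in liver transcripts. Without it 50 members were called. Leaving out one of the other controls gave 7 (replicate 1), 9 (replicate 2), 6 (replicate 3), 2 (replicate 4) or 4 (replicate 6). Leaving out an irradiated array gave 4 (replicate 1), 2 (replicate 2), 10 (replicate 3), 8 (replicate 4) or 17 (replicate 5). The median change stayed between -0.80 and -0.60 through these omissions. Without the 4 liver-bright arrays, which were replicate 3 of Atm at 4 Gy, replicates 1 and 2 of the irradiated WT group and replicate 5 of its controls, 1 member was called and the median was -0.69. With slide as a fixed term 0 were called (53 lower at an unadjusted p under 0.05), with scan day 4.

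Members of higher signal had the more negative changes in WT at 75th percentile scaling. Over the 154 probes well above background on all arrays, the rank correlation of the change with the mean level was -0.67 in WT, 0.02 in Atm and 0.32 in Scid, as a description across probes that share their arrays. In WT the brighter 77 probes had a median change of -0.82 and the dimmer 77 of -0.44. With normexp the WT correlation was -0.47 and these medians were 0.60 and 0.81. Probes that start beyond base 900 of their transcript (16 probes, 12 genes, a limit chosen after values were seen) had a WT median of -0.10, against -0.72 for the other 158 (0.35 and 0.63 with normexp).

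**Figure D4:**
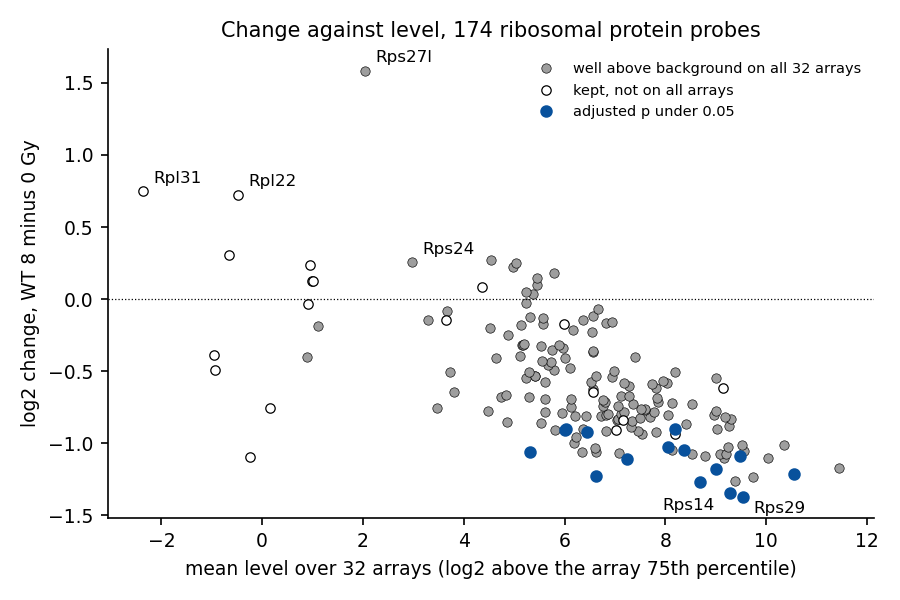
Log2 change in WT (8 minus 0 Gy, 75th percentile scaling) against mean level over 32 arrays for 174 ribosomal protein probes, with called probes in blue. The 15 called probes lie between -1.37 and -0.90, and the points fall with level among the 154 probes detected on all arrays (rank correlation -0.67), while Rps27l stands alone at 1.59. With normexp the 15 called probes have positive changes.

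Probes of 1 gene gave similar changes in most cases. Of 59 genes with at least 2 kept probes, the median range between probes was 0.21 in WT, 0.27 in Atm and 0.22 in Scid, and 9, 10 and 8 genes had probes of both signs. In WT these were Rpl6, Rpl14, Rpl15, Rpl22, Rpl23, Rpl27a, Rpl31, Rps6 and Rps24, and in Scid Rpl6, Rpl10, Rpl15, Rpl28, Rpl37a, Rpl39, Rps3 and Rps6. The widest range in WT was 1.58 for Rpl31, where a probe above background on 9 arrays changed by 0.75 and the other 3 by -0.83 to -0.72. Rpl22, a protein of the large subunit with a role in T cell development, had a probe above background on 26 arrays at 0.72 and one detected on all arrays at -0.78. Rps24 had 1 probe at 0.26 and 3 others from -1.07 to -0.90. In Atm the widest range was 1.62 for Rpl15 (0.91 and -0.71), and in Scid 1.67 for Rps3 (0.38 and -1.29). The family has many processed copies in the genome, and of 182 probes with both positions known the files place 24, for 16 genes, on another chromosome than the gene in RefSeq (chromosomes only were compared). Those 24 probes had median changes of -0.85, -0.39 and -0.49 in the 3 genotypes, against -0.68, -0.41 and -0.48 for the 146 kept probes on the gene's chromosome. In WT 5 of the 24 and 10 of the 146 were called lower, where 6.25% of all probes were. The 24 also had a higher median level (7.42 against 6.55), and the part of placement in the calls was not tested.

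To show unequal change among members without any between-array constant, each array was also set to the median of its own 154 family probes. On this scale 2 of the 174 probes rose in WT (adjusted p under 0.05 in limma) and 0 fell, where 14.4% of all probes rose and 2.91% fell (17.3% called). They were Rps27l and the Rpl31 probe above background on 9 arrays, whose rise is no support, since it passed the filter on dim probes only through the irradiated WT group. At an unadjusted p under 0.05, 2 were lower and 12 higher. In Atm and Scid 0 members passed (2 lower and 7 higher in Atm, 3 lower and 1 higher in Scid, at an unadjusted p under 0.05), where 0.523% and 0.103% of all probes did.

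Rps27l encodes a close relative of Rps27 and is known as a transcriptional target of p53. Its only probe lies on chromosome 9 (66795486 to 66797176 in mm9, across an intron) and starts at base 264 of the transcript. The probe is shown because Rps27l is read from it alone, with capitals for the longest stretch (6 bases) that it shares with any of the 4 Rps27 probes.
Rps27l probe: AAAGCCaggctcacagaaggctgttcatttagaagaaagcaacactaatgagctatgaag
With any other member probe it shared at most 9 bases, and whole transcripts were not compared.

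Rps27l levels in WT at 0 Gy ran from 0.47 over 1.33 to 3.65 (1.70 ± 1.15, SD, n = 6), and at 8 Gy they were 4.41, 4.26, 2.02, 2.95 and 2.79 (3.29 ± 1.02, SD, n = 5). The irradiated arrays lay among or above the controls, and the highest control was again replicate 5. In Atm they were 1.66, 2.42, 1.49, 2.03 and 0.77 at 0 Gy and ran from 0.02 over 2.63 to 3.76 at 4 Gy. In Scid they were 0.53, 0.68, 1.77, 2.26 and 1.37 at 0 Gy and 1.33, 1.59, 3.26, 1.81 and 1.03 at 3 Gy, with wide overlap.

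At 75th percentile scaling Rps27l changed by 1.59 in WT (SE 0.57, adjusted p = 0.0921), 0.77 in Atm (adjusted p = 0.654) and 0.48 in Scid (adjusted p = 0.870), and none of these passed the test. Relative to the family it rose by 2.23 in WT (SE 0.57, adjusted p = 0.0120), with values from 1.87 to 2.72 without any 1 array. With normexp the relative change was 0.59 (adjusted p = 0.560), and with slide as a fixed term its adjusted p was 0.0850. Relative to the family the changes were 1.23 in Atm and 1.01 in Scid and were not called. The differences from WT at 75th percentile scaling were -0.82 for Atm (SE 0.81, adjusted p = 0.800) and -1.11 for Scid (adjusted p = 0.689). Its relative Rps27, on 4 probes, had medians of -0.76, -0.56 and -0.79 in WT, Atm and Scid, with 0 probes called in any (smallest adjusted p 0.216, 0.216 and 0.473).

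In WT this Rpl31 probe was well above background on 2 of 6 controls and 4 of 5 irradiated arrays, and in each of the other groups on at most 1. Its measured level ran from -3.17 over -2.51 to -1.30 in the controls and was -1.28, -1.71, -2.44, -1.30 and -1.91 after 8 Gy, with overlap. Its controls are thus mostly at background, and its change (0.75, or 1.39 relative to the family and -1.13 with normexp) is a description. The other 3 Rpl31 probes changed by -0.19 to -0.08 relative to the family.

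Among genes of Diamond-Blackfan anaemia and 5q- syndrome, a list of 11 genes (21 probes), 1 probe fell in WT (Rps14), 0 in Atm (smallest adjusted p 0.316) and 1 in Scid (Rpl11), against 6.25%, 0.212% and 1.28% of all probes that fell, so these counts are no result about the list. Medians were -0.53, -0.22 and -0.46, and 19, 17 and 21 of the 21 probes had a negative change. Rps19, the gene most often mutated in the anaemia, stood at 2.90 to 5.65 in WT controls and at 5.07, 3.94, 4.38, 5.10 and 5.16 after 8 Gy, with full overlap (change 0.27, adjusted p = 0.757). It changed by 0.0047 in Atm and -0.07 in Scid. Rpl5, which binds MDM2 together with Rpl11 and 5S rRNA, changed by -0.20, -0.15 and -0.71. Rps26 changed by -0.90, -0.22 and -0.46 and Rps7 by -0.46, -0.16 and -0.39. In WT the probes of Rps10 changed by -0.78 and -0.73, those of Rpl35a by -0.81 and -0.66 and those of Rpl26 by -0.75 to -0.49. None of these was called.

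The stalk proteins Rplp0, Rplp1 and Rplp2 had negative changes on all 6 probes in WT (median -1.09, from -1.26 to -0.88). Of these 1, Rplp2, was called, where 6.25% of all probes fell. In Atm the median was -0.27 and in Scid -0.35. For Rplp0 the WT changes were -1.26, -1.07 and -1.01 on 3 probes with adjusted p from 0.0580 to 0.119. Among genes with a paralog or a tissue-restricted copy (5 of 8 kept, 13 probes) medians were -0.78, -0.48 and -0.33. Rpl39, which lines the exit tunnel, changed by -1.10 to -0.94 in WT, Rpl10, which joins the large subunit late, by -0.84 to -0.78, and Rpl3, near the peptidyl transferase centre, by 0.03 and 0.25, with -0.79 and -0.73 in Scid, and none was called. The 6 genes with other roles (16 probes) had medians of -0.32, -0.51 and -0.83 and smallest adjusted p of 0.134, 0.313 and 0.0903. They were Rps3 and Rpl22, Rps6, the substrate of S6 kinase, Rpsa, which doubles as a laminin receptor, Rps27a, made as a fusion to ubiquitin, and Rpl13a, a part of the interferon-induced GAIT complex. Rpsa had WT, Atm and Scid medians of -0.16, -0.58 and -0.93 (3 probes), Rps6 of -0.32, -0.71 and -0.87 (3 probes) and Rps27a of -0.43, 0.06 and -0.94 (2 probes). The 3 Rpl13a probes changed by -0.34 to -0.03 in WT and by -0.81 to -0.57 in Scid.

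For mice that lack the kinase, 4 Gy was set against 0 Gy. At 75th percentile scaling 0 of the 174 probes were called (27 lower and 1 higher at an unadjusted p under 0.05, smallest adjusted p 0.108 in limma), where 0.212% of all probes fell and 0.109% rose (0.321% called). A negative change was seen in 155, and 1 probe (Rpl10a, -0.83) had groups that did not overlap (0.575%), against 1.72% of all probes. Without Atm 4 Gy replicate 1, the irradiated array with the highest family level (7.21), 5 were called, with array weights 3, and with spike-in scaling 169, all lower, where the median of all probes was -1.64. Rpl8, a core protein of the large subunit, stood at 7.91, 7.82, 7.96, 8.15 and 7.49 at 0 Gy and from 6.05 over 6.95 to 7.68 at 4 Gy (change -0.89, adjusted p = 0.108). Its irradiated arrays overlapped the controls at the upper end. Rps15, a small-subunit protein, stood at 4.52, 5.67, 4.71, 5.53 and 4.77 at 0 Gy and from 3.49 over 3.93 to 4.73 at 4 Gy (change -0.98, adjusted p = 0.127). A Rps27 probe had the most negative change (-1.41, adjusted p = 0.216), which rested on 1 array at 3.36 while the other irradiated arrays stood from 6.88 to 7.92 and the controls from 7.48 to 8.65. The most positive change among probes detected on all arrays was that of Rps27l, and then came 1 Rps24 probe (0.45) and Rps21 (0.25).

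In Scid mice, 3 Gy against 0 Gy, 1 of the 174 probes fell (0.575%) and 0 rose, where 1.28% of all probes fell and 0.0817% rose (1.36% called). The called probe was the 3′ probe of Rpl11, at chromosome 4, 135605863 to 135605922 in mm9. It stood at 6.00, 6.00, 5.88, 6.67 and 6.59 at 0 Gy (6.23 ± 0.37, SD, n = 5) and at 4.83, 5.80, 4.34, 5.33 and 4.18 at 3 Gy (4.89 ± 0.68, SD, n = 5). All irradiated arrays lay below every control. The probe fell by 1.33 (SE 0.34, adjusted p = 0.0401), and it was called in 1 of the 10 fits without 1 array, with adjusted p up to 0.147. The other Rpl11 probes changed by -0.85 and -0.78, not called. In WT and Atm the called probe changed by -0.17 and -0.35.

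Of the 174 probes 165 had a negative change in Scid and 30 were lower at an unadjusted p under 0.05. The groups did not overlap for 9 (5.17%, all lower), against 2.38% of all probes: Rpl11, Rps18, Rps27a, Rpl8, 2 of Rpsa, Rps6, Rpl13a and Rpl6. Rpl8 stood at 7.69, 7.39, 7.31, 7.81 and 7.35 at 0 Gy and at 6.32, 6.96, 6.28, 6.47 and 6.47 at 3 Gy (change -1.01, adjusted p = 0.0631). The laminin receptor Rpsa stood at 6.99, 7.07, 6.84, 7.47 and 7.08 at 0 Gy and at 6.18, 6.06, 6.64, 6.31 and 5.79 at 3 Gy on the probe of smallest p (change -0.89, adjusted p = 0.0903). Neither passed the test, although the groups of both were apart. Rps2, a small-subunit protein at the entry of the message, had the most negative change (-1.35, adjusted p = 0.0964), from 7.16, 5.40, 7.13, 6.71 and 7.72 to 5.94, 6.62, 5.78, 4.40 and 4.64, with overlap. Rps3, a small-subunit protein that also acts in DNA repair, had 1 probe at 5.29, 5.18, 5.06, 5.84 and 5.17 at 0 Gy and at 4.08, 5.30, 3.95, 4.39 and 2.34 at 3 Gy (change -1.29, adjusted p = 0.215) and another at 0.38 that overlapped throughout. The most positive Scid changes among probes detected on all arrays were those of Rps27l (0.48), that Rps3 probe and an Rpl28 probe (0.10). The array Scid 3 Gy replicate 2 had a family level of 7.17, above 4 of the 5 controls, and without it 3 members were called and the median was -0.66 in place of -0.49.

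By gene, taking the median over its probes at 75th percentile scaling, 70 of 77 genes had a negative change in WT, 70 in Atm and 76 in Scid, and 66 had one in all 3. Rps27l was the only gene with a positive value in all 3 and the highest in each. The lowest were Rps14 in WT (-1.35), Rpl23a in Atm (-0.80) and Rps2 in Scid (-1.09). With normexp the sign in WT turned for most probes, of which 7 of 174 were then negative, against 164 in Atm and 163 in Scid.

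**Figure D5:**
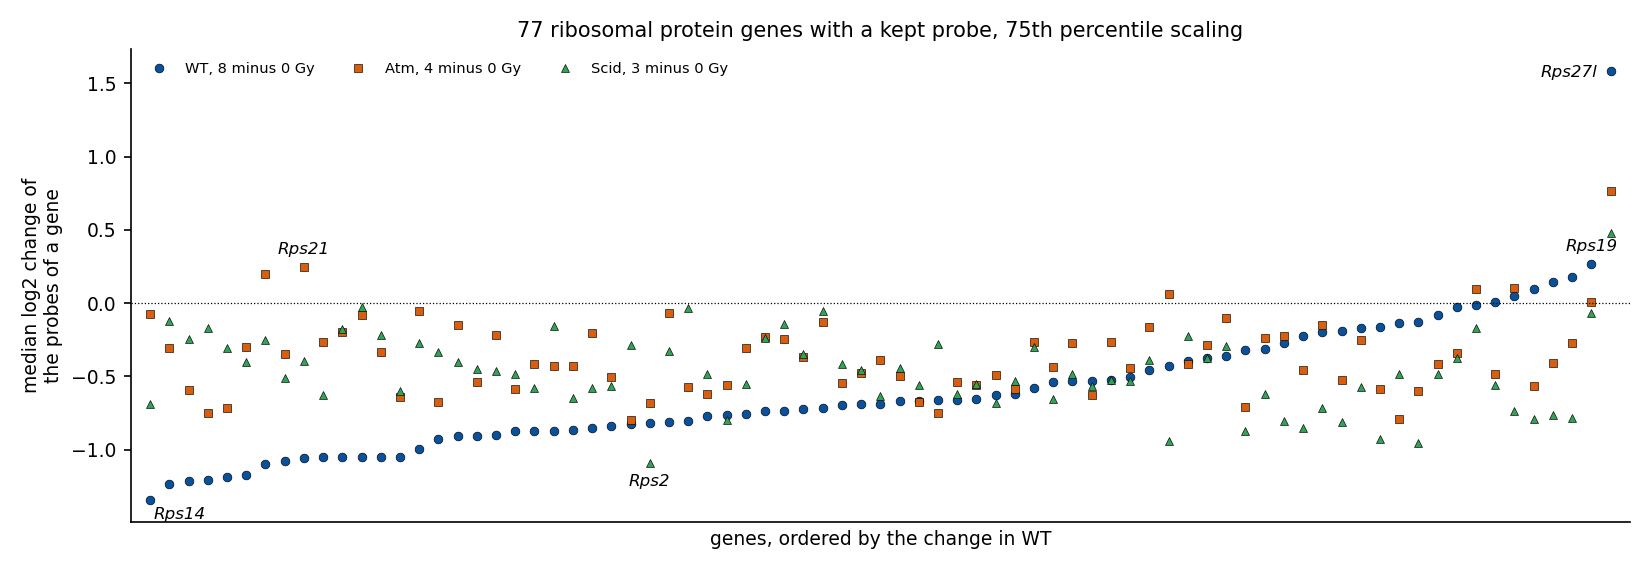
Median log2 change of the probes of each of 77 ribosomal protein genes (75th percentile scaling) in WT (circles), Atm (squares) and Scid (triangles), ordered by WT, with 5 genes of the text labelled. Most points lie below 0 (70, 70 and 76 genes), and Rps27l, at the right, is the only gene above 0 in all 3; with normexp the WT median over probes is 0.63.

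The difference of responses was not detected for any member at 75th percentile scaling. The Atm change less the WT change had 0 members called (0 of all probes as well, while 7 members and 1578 of all probes had an unadjusted p under 0.05) and a median of 0.26. Rps14 had the smallest p in it (1.27, SE 0.46, adjusted p = 0.448), followed by Rps21 (1.31, adjusted p = 0.492). The Scid change less the WT change had 0 called (6 members and 1356 probes at an unadjusted p under 0.05), a median of 0.17 and the smallest p for Rpl11 (-1.16, SE 0.47, adjusted p = 0.659). Both share the WT arrays. These medians turned to -1.40 and -1.12 with normexp, -0.27 and -0.39 with the array median and -2.51 and -0.79 with spike-ins, under which all 174 members were called lower in the Atm difference and the median of all probes was -2.84.

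At 0 Gy the members' median difference from WT at 75th percentile scaling was -0.03 in Atm and -0.02 in Scid, 0 members and 0 of all probes were called (limma), and 1 and 0 members had an unadjusted p under 0.05. The 1 was a Rpl35 probe in Atm (-0.80, adjusted p = 0.9995). The smallest adjusted p in Scid was 0.902. Both comparisons share the WT controls. With other settings the family level in Scid differed from WT by -0.39 (spike-ins), -0.24 (detected probes, 3 of 5 arrays below every WT control) and -0.20 (quantile). The family level in Atm differed from WT by 0.29 (spike-ins) and 0.28 (normexp).

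Other genes of protein synthesis are given beside the family at 75th percentile scaling, from lists chosen with earlier results of these data known. Factors of ribosome assembly, such as nucleolin and the box C/D proteins (26 genes, 41 probes), had medians of 0.26, -0.25 and -0.60 in WT, Atm and Scid, with 0 called. Elongation factors and other messages with a 5′ oligopyrimidine tract (17 genes, 29 probes) had -0.36, -0.29 and -0.32. Of these 29 probes 2 fell in WT, where 6.25% of all probes did. They were Eef1d, a subunit of the exchange factor of elongation (-1.53, SE 0.35, adjusted p = 0.00427), and Pabpc1, the cytoplasmic poly(A)-binding protein (-2.44, SE 0.43, adjusted p = 0.000222).

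Initiation factors (22 genes, 31 probes) had medians of 0.09, -0.30 and -0.50. In WT 4 probes fell, 2 of Eif5 (-3.23 and -3.03), which triggers GTP hydrolysis at the start codon, and 2 of Eif3k (-1.24 and -1.19). Eif5 also fell in Atm on 1 probe (adjusted p = 0.0270) and in Scid on 2 (-1.98 and -1.65). Mitochondrial ribosomal proteins (74 genes, 96 probes) had 0.45, -0.14 and -0.15, and Mrpl32 fell in WT (-2.15) and Scid (-1.90). Of all probes 6.25%, 0.212% and 1.28% fell in WT, Atm and Scid. The calls are given gene by gene and are no result about a list. On the scale used for levels, the cytosolic family at -0.69 thus had the most negative of these 5 list medians in WT, all measured on the same arrays. With normexp the family's WT median was positive, and the other lists' medians under that setting are not given. Within the family the WT change fell with signal level (rank correlation -0.67 over 154 probes). Levels were not compared between the lists, so the part of level in this ranking was not tested.

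On the scale used for levels, red cell, B cell and T cell markers had negative median changes in each genotype, as the family did. Heart markers (5 probes) also had negative medians, but that in Atm was only -0.03. In WT the family's median was positive with normexp and with spike-ins, and marker medians under those settings are not given. The part of any cell type in the family's change was not tested. Red cell markers had a mean level, over 10 probes (9 genes), of 3.42 to 5.49 on WT controls. It was 1.33 to 2.65 on irradiated WT arrays, where 8 of the 10 probes fell (median change -2.40). In Atm it ran from 4.46 to 4.84 at 0 Gy and from 2.89 to 4.65 at 4 Gy (0 called, median -0.95), and in Scid from 4.32 to 5.70 and from 3.16 to 4.39 (2 fell, median -0.91). Of 12 B cell probes 6 fell in WT (median -1.39), 1 in Atm (-1.61) and 0 in Scid (-0.40). Among all probes 6.25% fell and 1.14% rose in WT, and 0.212% and 1.28% fell in Atm and Scid. T cell markers had medians of -0.78, -0.63 and -0.42, with 1 of 12 probes called in WT. Monocyte markers had medians of 0.84, 0.43 and 0.33 (1 probe fell and 2 rose in WT), neutrophil markers -0.37, 0.04 and -0.46, platelet markers 0.36, 0.07 and 0.67, liver markers 1.51, 1.59 and 1.15 and heart markers -0.72, -0.03 and -0.71, and no probe of these last 4 lists was called by limma.

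Changes of members with and without a pyrimidine run near the start site are set side by side here. Of 56 genes with a promoter entry and a kept probe, 48 had a run of at least 8 and 8 did not. Their median changes were -0.70 and -0.53 in WT, -0.34 and -0.42 in Atm and -0.47 and -0.48 in Scid, a description over genes that share their arrays. A gene without a run in the window is not shown to lack the tract at the cap. The part of the tract in the changes was not tested.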

How the data were processed

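Whole-blood RNA of 32 mice was measured on Agilent 1-colour arrays and grouped by the labelled genotype and dose. The authors deposited each array's processed signal, an intensity per spot that Agilent Feature Extraction (12.0.2 per the submitters' processing notes, 11.5.1.1 per the file headers) background-subtracted and detrended, not normalized between arrays. The deposited series matrix holds the authors' log2 values of these arrays, equal to the log2 processed signal plus a constant per array for nearly all probes; how the constant was chosen is not given in the sources used here.

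Spots of a probe were averaged, and control spots and non-uniform spots left out. Probes were kept if 4 or more arrays of some group had them above background. Log2 signal less the array's 75th percentile was fitted with limma 3.58.1 in R 4.3.3 on all 32 arrays, two-sided, with Benjamini-Hochberg adjustment over all 18368 probes and calls under 0.05. Fits with slide or scan day as a term, the 7 settings of scaling and background correction, and leaving out each array were alternatives. Python 3.11.15 made the tables. The fits were tested on simulated data.

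Values of some single members are not reported here. Members, lists and tests were chosen with earlier results of these data known. Genes were named by role, as the called probes of largest change, and as the probes detected on all arrays of both groups farthest from the members' median.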

Additional observations from a re-analysis of the deposited data

Results flagged for a closer look

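In Atm mice at 4 Gy, replicate 6 stood at 3.36 on a Rps27 probe (A_55_P2163622), while the other 5 arrays of the group stood from 6.88 to 7.92. The gap to the nearest array was 0.773 of the group's range, above the 0.625 at which Dixon's test passes for 6 arrays. Of 46 groups of values tested in this way this was the only one to pass, and chance alone gives about 1 in 20. The same array had the lowest 75th percentile of its group (17.7), the lowest share of probes well above background (20.02%) and the lowest family level of the 32 arrays (5.73). The other Rps27 probes changed by -0.62 to -0.37 in Atm.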

How the results depend on the processing

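The 15 calls in WT became 0 with normexp, quantile normalization, the array median, the authors' values or slide as a fixed term, 1 without the 4 liver-bright arrays, 3 in a fit of only the groups compared, 4 with the percentile of detected probes (3 lower, 1 higher), with spike-ins (all higher), without the filter on dim probes or with scan day, 8 with 1 probe per gene, 45 over only probes detected on all arrays, 61 with array weights, and 2 to 50 leaving out 1 array. The WT median was 0.63 with normexp, 0.57 with spike-ins, -0.030 with quantile normalization, -0.26 with the percentile of detected probes and -0.26 in the authors' values, and -0.80 to -0.60 leaving out 1 array. The single called probe of Scid became 0 with normexp, quantile normalization, the array median, detected probes, spike-ins, the authors' values, no filter, 1 probe per gene, only the groups compared, slide or scan day, 4 over probes detected on all arrays, 9 with array weights and 0 to 3 leaving out 1 array (median -0.66 to -0.40). The 0 of Atm became 169 with spike-ins (median -1.91), 3 with array weights and 0 to 5 leaving out 1 array (median -0.54 to -0.28). The Atm less WT response had 174 lower with spike-ins. The counts in this section are of members only, without the share of all probes called in the same fit.

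Replicate numbers are shared between groups and do not pair the mice: of 76 same-numbered pairs 31 had a correlation of deviations above 0.1 (median 0.039). With a replicate block 9 members were called in WT, 0 in Atm and 2 in Scid, and 3 relative to the family in WT.

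Relative to the family, the 2 members that rose in WT became 0 with normexp or slide, 1 without the filter, with 1 probe per gene or without the liver-bright arrays, 19 with array weights, and 1 to 10 leaving out 1 array (10 without replicate 5 of the WT controls, 4 without their replicate 2, 1 without their replicate 4 or replicate 2 of the irradiated WT group), and Scid had 1 with array weights. The Rpl31 probe turned to -1.13 with normexp.

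With normexp all 15 probes called in WT turned positive, among them Rpl21 0.55, Rps16 0.54 and 0.52, Rpl12 0.53, Rpl28 0.48 and 0.26, Rpl13 0.40 and 0.38, Rpl37a 0.37, Rpl36a 0.29, Rplp2 0.20, Rps14 0.15 and Rps29 0.033. With spike-ins 12 did, among them Rpl12 0.36, Rps16 0.36 and 0.35, Rpl28 0.35 and 0.084, Rpl21 0.34, Rpl13 0.24 and 0.21, Rpl36a 0.20, Rpl37a 0.17 and Rplp2 0.045. The cause was not tested, beyond the arrays and probes that each setting uses. Signal over background limits dim members most, and the 5 or 6 mice per group limit all of them.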
